A study of Rattus norvegicus with 12 samples.

Results

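The cytosolic ribosomal protein genes of rat lung were compared between rats that had inhaled crystalline nanocellulose (CNC) and rats that had inhaled air. The genes were taken by their symbols, Rpl or Rps followed by a number and at most 1 letter, with Rplp0, Rplp1, Rplp2 and Rpsa, and symbols of pseudogenes and near-copies were left out. The rule found 80 of the 30045 gene symbols in the count table, 48 of the large and 32 of the small ribosomal subunit. All 12 animals were male Fischer 344 rats, 3 months old when bought, and each gave 1 piece of lung. The CNC rats (n = 6) breathed 20 mg/m3 of CNC, needle-like crystals of plant cellulose, in a whole-body chamber on 14 exposure days of 6 hours each, with 5 such days in a week, and the air rats (n = 6) breathed air. Lungs were taken 1 day after the last exposure, and polyadenylated RNA was sequenced. A piece of whole lung holds many cell types, so more RNA per cell and more cells of a type rich in a transcript cannot be told apart here.

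Each ribosome is built from a small subunit, which reads the messenger RNA, and a large subunit, which joins the amino acids. Each subunit carries ribosomal RNA and a set of proteins that are needed in equal numbers, apart from the stalk proteins P1 and P2, which are present in more than 1 copy. In mammals the genes of these proteins share an unusual start: transcription begins at a C within a run of C and T, called the 5′ terminal oligopyrimidine (TOP) tract. Messenger RNAs that begin this way are translated more when the kinase complex TORC1 is active, with the RNA-binding protein LARP1 as a link, and this control acts on translation more than on the amount of RNA. Most of these genes are used in every tissue, and a few copies with tissue-restricted use are known, among them Rpl10l and Rpl39l of testis and Rpl3l of heart and skeletal muscle.

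The start sites are shown first, because the C/T run is the feature that the family shares. Of the 80 genes, 63 had a promoter in the RefSeq table (rat assembly GRCr8). A run of at least 6 C or T on the gene's strand that touched the 5 bases on either side of the annotated start was found in 43 of the 63 (68.3%), against 18.0% of all 21851 protein-coding promoters. Rps27a was counted among the 43 with a run of 7 bases, but another reading of its start gave a run of 2. The same search for runs of A and G found 9.52% of the ribosomal protein promoters and 21.7% of the protein-coding ones. The median run at the start was 9 bases in the family and 3 bases in protein-coding promoters, and the longest in the family, in Rps23, was 21 bases. Each sequence below covers 20 bases before the annotated start and 20 bases from it, 5′ to 3′ on the gene's strand, with the C/T run in capitals. The first 5 are genes that were higher in CNC lungs, shown because their groups did not overlap.
Rplp0 (chr12:46718371-46718410, minus strand): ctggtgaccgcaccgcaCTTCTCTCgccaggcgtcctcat
Rpl10 (chrX:157205830-157205869, plus strand): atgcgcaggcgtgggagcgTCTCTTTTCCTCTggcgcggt
Rpl22 (chr5:168117941-168117980, plus strand): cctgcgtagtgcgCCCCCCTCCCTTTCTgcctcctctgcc
Rpl23 (chr10:83272165-83272204, minus strand): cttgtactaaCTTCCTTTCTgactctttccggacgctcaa
Rps15a (chr1:181860265-181860304, minus strand): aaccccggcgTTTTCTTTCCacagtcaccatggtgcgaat

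The next 3 belong to genes that did not pass the test, shown because they carry such runs as well.
Rps14 (chr18:56498240-56498279, plus strand): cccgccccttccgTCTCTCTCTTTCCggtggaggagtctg
Rps27 (chr2:177964587-177964626, minus strand): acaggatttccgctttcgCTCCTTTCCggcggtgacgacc
Rplp1 (chr8:71290853-71290892, minus strand): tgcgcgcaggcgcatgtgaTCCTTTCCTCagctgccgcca

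The last 2 are windows with no run of 6 at the annotated start, from genes that were higher in CNC lungs.
Rpl3 (chr7:113507971-113508010, minus strand): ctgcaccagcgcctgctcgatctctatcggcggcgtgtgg
Rps27l (chr8:76443638-76443677, plus strand): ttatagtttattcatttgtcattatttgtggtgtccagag

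The annotated start can lie some bases from the true one, so that a run just outside the window is not counted. The word CTTTCC on the gene's strand, within 20 bases of the start on either side, was in 17 of the 63 promoters (27.0%), against 1.88% of the protein-coding ones, and on the other strand in 1.59% against 1.45%. The word CTCTTT, which can overlap CTTTCC by its last letters, was in 27.0% of the family and 1.52% of the protein-coding promoters on the gene's strand, and in none of the family and 1.13% of the protein-coding ones on the other strand. Genes with and without the run gave like values: of 41 tested genes with it 19 were higher in CNC lungs, with a median log2 fold change of 0.13, and of 17 without it 9 were higher, with a median of 0.15. For Rps4x and Rps27a the promoter has the gene identifier of the count rows LOC100362640 and LOC100912032, while the fold change is that of the row under the symbol.

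The library totals ran from 9917387 to 14735245 counts in CNC rats and from 8693259 to 16603697 in air rats. Values per gene are CPM, a gene's counts scaled to a common library size by TMM, not per length, so that levels can be compared between rats but not between genes. The test was edgeR's quasi-likelihood test over all 15019 genes with enough counts, and a gene is called higher or lower at a Benjamini-Hochberg adjusted p under 0.05 over all of them. All differences are CNC over air.

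Ribosomal protein transcripts were slightly more abundant in CNC lungs. Of the 74 members with enough counts to test, 38 were higher, 1 was lower and 35 did not pass, where over all tested genes 13.2% were higher and 11.4% lower. Among the 4846 genes that averaged 50 CPM or more, 838 (17.3%) were higher and 963 lower. The log2 fold change was above 0 in 72 of the 74, against 49.4% of all tested genes. The changes were small: the 38 risen genes were 1.07- to 1.29-fold higher. The median over the 74 was a log2 fold change of 0.14, or 1.101-fold, against -0.0026 over all tested genes and -0.012 over the 4846 genes that averaged 50 CPM or more. In 16 members every CNC rat was above every air rat, against 6.82% of all tested genes, and in none was every CNC rat below, against 4.7%. The members varied together between rats of a group (median Pearson r of 0.50 between pairs), so these counts are not independent observations.
These counts moved with the samples and the scaling. With CNC rats 3 and 4 left out, the 2 with the highest ribosomal protein share, 20 of 74 were higher. With library size alone as the scaling, 27 of 74 were higher. Genes of the circadian clock also differed between the groups, 7 higher and 6 lower of 15 tested, and Dbp, a clock-driven transcription factor, had 31.6 to 83.9 CPM in CNC rats against 9.29 to 34.2 CPM in air rats. With the first component of these genes as a covariate no member was called, the median log2 fold change was 0.07, 59 of 74 were above 0, 11 had an unadjusted p under 0.05 and the standard errors were 1.95 times as large. The scores on that component ran from 1.103 to 4.42 in CNC rats and from -5.30 to 1.24 in air rats, overlapping only through air rat 4 and CNC rat 1, so that clock state and exposure cannot be told apart in these animals.

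**Figure D1:**
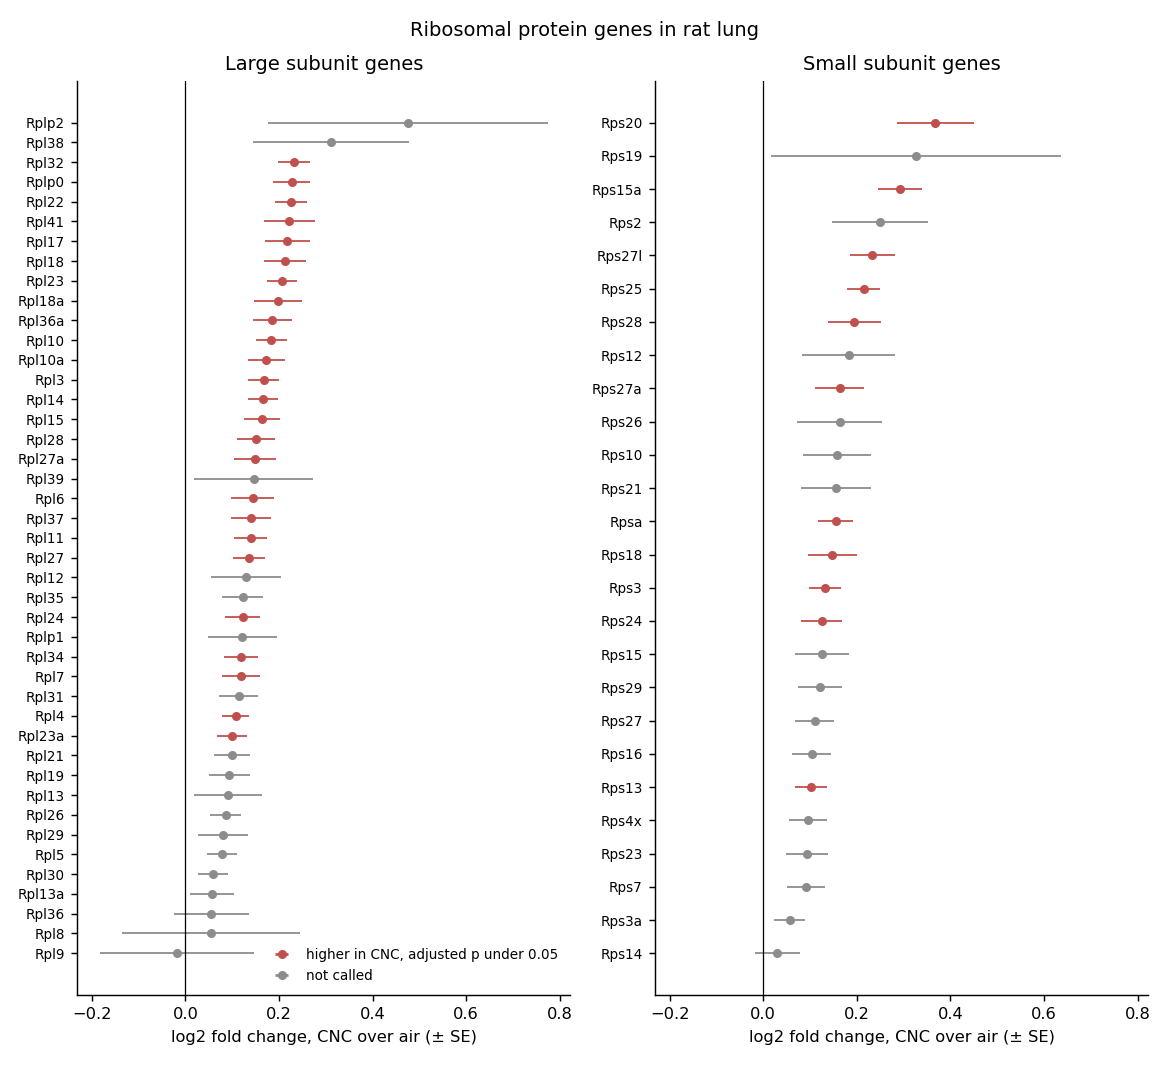
Log2 fold change (CNC over air, x axis) with its standard error for 43 large-subunit and 26 small-subunit genes, with the large subunit left and the small subunit right, and red for genes higher in CNC lungs and grey for those not called. Points lie to the right of 0 except Rpl9, and Rpl10l at -1.64 lies off the axis and is not drawn.

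The share of each library taken by the 80 genes gives the same picture per animal. In CNC rats 1 to 6 the share was 1.75%, 1.73%, 1.88%, 1.88%, 1.72% and 1.78% of all counts. In air rats 1 to 6 it was 1.62%, 1.63%, 1.71%, 1.74%, 1.59% and 1.60%. The means were 1.79 ± 0.0736% in CNC rats and 1.65 ± 0.0633% in air rats (SD, n = 6 each), a ratio of 1.09, and the groups overlapped: air rat 4 was above CNC rat 5 and CNC rat 2. After TMM scaling the sum was 17332 to 19039 CPM in CNC rats and 15541 to 17213 CPM in air rats, which did not overlap. No test was made of these sums, since the genes were chosen with results in view.

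CNC rats 3 and 4 stood above the other CNC rats, and air rats 3 and 4 above the other air rats. Of the 74 members, 72 and 71 were above their own mean over 12 rats in CNC rats 3 and 4, and 39 to 56 in the other CNC rats. In air rats 3 and 4 the numbers were 39 and 35, and in the other air rats 2 to 10. Rat numbers only name an animal, so the like numbers pair nothing.

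**Figure D2:**
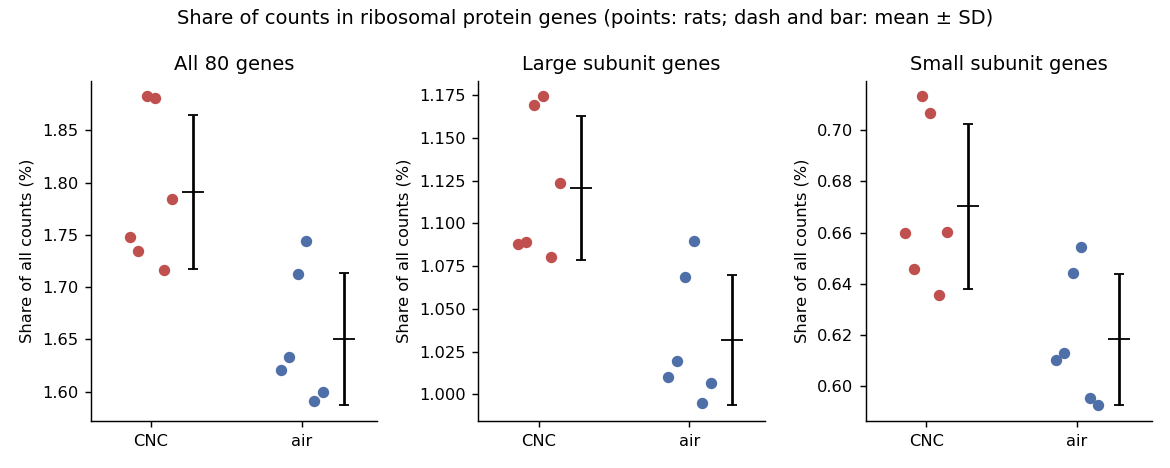
Share of all counts (percent, y axis) in all 80 genes and in those of each subunit, for each CNC rat (left) and each air rat (right), with mean ± SD as dash and bar and axes that do not start at 0. Large-subunit shares were 1.08% to 1.17% in CNC rats and 0.995% to 1.09% in air rats, and small-subunit shares 0.636% to 0.713% in CNC rats and 0.593% to 0.654% in air rats.

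Genes of both subunits were higher. Of the 30 tested small-subunit genes 13 were higher, none was lower and 17 did not pass, with all 30 log2 fold changes above 0 and a median of 0.15. Of the 44 tested large-subunit genes 25 were higher, 1 was lower and 18 did not pass, with 42 above 0 and a median of 0.14. The large-subunit transcripts took 1.12 ± 0.0423% of counts in CNC rats and 1.03 ± 0.0382% in air rats, and the small-subunit transcripts 0.670 ± 0.0321% in CNC rats and 0.618 ± 0.0254% in air rats (SD, n = 6 each).

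Among the large-subunit genes, Rplp0 codes for the base of the stalk on which the elongation factors land, and is often used as a reference gene in PCR. It had 759, 787 and 859 CPM (lowest, median, highest) in CNC rats, against 655, 687 and 724 CPM in air rats. The lowest CNC rat lay above the highest air rat, and the log2 fold change was 0.23 ± 0.04 (SE; 1.17-fold, adjusted p = 0.000723, edgeR). Rplp1, which codes for a stalk protein that binds the P0 base, had 277, 288 and 332 CPM in CNC rats and 232, 287 and 309 CPM in air rats. Its groups overlapped with almost equal medians, and its log2 fold change of 0.12 ± 0.07 had an adjusted p of 0.257 (edgeR). Rplp2, the partner of P1, was nearly empty under its own symbol, with 94 counts over the CNC libraries and 65 over the air libraries. It had 0.557, 1.245 and 1.92 CPM in CNC rats and 0.648, 0.830 and 1.17 CPM in air rats and did not pass (0.48 ± 0.30, adjusted p = 0.282, edgeR).

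Rpl3 and Rpl10 lie near the peptide-joining centre and the site where tRNA enters. Rpl3 had 587, 615 and 636 CPM in CNC rats and 520, 539 and 574 CPM in air rats. Rpl10 had 444, 473 and 495 CPM in CNC rats and 397, 419 and 427 CPM in air rats. In both genes the groups did not overlap, with log2 fold changes of 0.17 ± 0.03 (adjusted p = 0.00168) and 0.18 ± 0.03 (adjusted p = 0.00076) by edgeR.

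Rpl5 and Rpl11 form, with 5S ribosomal RNA, a particle that enters the large subunit and, when unassembled, holds back Mdm2 and so stabilises p53. Rpl11 had 296, 302 and 315 CPM in CNC rats and 265, 271 and 295 CPM in air rats, with no overlap and a log2 fold change of 0.14 ± 0.03 (adjusted p = 0.00769, edgeR). Rpl5 had 502, 518 and 531 CPM in CNC rats and 472, 486 and 524 CPM in air rats, which overlapped, and did not pass (0.08 ± 0.03, adjusted p = 0.0884, edgeR). In 3 of the 28 alternatives Rpl5 was called higher. The difference between the 2 genes was not tested.

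The 3 smallest adjusted p-values of the family belonged to Rpl32, Rpl22 and Rpl23, all of the large subunit. Rpl32 had 209, 213 and 229 CPM in CNC rats and 174, 183 and 194 CPM in air rats (log2 fold change 0.23 ± 0.03, adjusted p = 0.000144, edgeR). Rpl22, which mice can lose with few effects outside T cell development because the paralog Rpl22l1 takes its place, had 100.3, 103 and 108 CPM in CNC rats and 84.9, 88.6 and 95.9 CPM in air rats (0.23 ± 0.03, adjusted p = 0.000208, edgeR). Rpl23, another binder of Mdm2, had 303, 308 and 324 CPM in CNC rats and 256, 269 and 283 CPM in air rats (0.21 ± 0.03, adjusted p = 0.000227, edgeR). In each of the 3 genes all CNC rats were above all air rats. The paralog Rpl22l1, not a member, had 22.01, 26.0 and 28.9 CPM in CNC rats and 20.0, 22.3 and 27.6 CPM in air rats and did not pass (0.15 ± 0.08, adjusted p = 0.211, edgeR).

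Rpl14 had 279.5, 289.5 and 304 CPM in CNC rats and 245, 257 and 275 CPM in air rats, without overlap (0.17 ± 0.03, adjusted p = 0.00176, edgeR). Rpl10a, Rpl18 and Rpl36a were also higher with no overlap, at log2 fold changes of 0.17, 0.21 and 0.19. Rpl41, which codes for the shortest ribosomal protein, had 369, 403 and 435 CPM in CNC rats and 299.9, 346 and 379 CPM in air rats. It was called higher (0.22 ± 0.05, adjusted p = 0.00745, edgeR) although its groups overlapped. The other 13 large-subunit genes that were higher with overlapping groups lay between 0.10 (Rpl23a) and 0.22 (Rpl17). The uncalled ones besides those named were Rpl8, Rpl9, Rpl12, Rpl13, Rpl13a, Rpl19, Rpl21, Rpl26, Rpl29, Rpl30, Rpl31, Rpl35, Rpl36, Rpl38 and Rpl39.

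**Figure D3:**
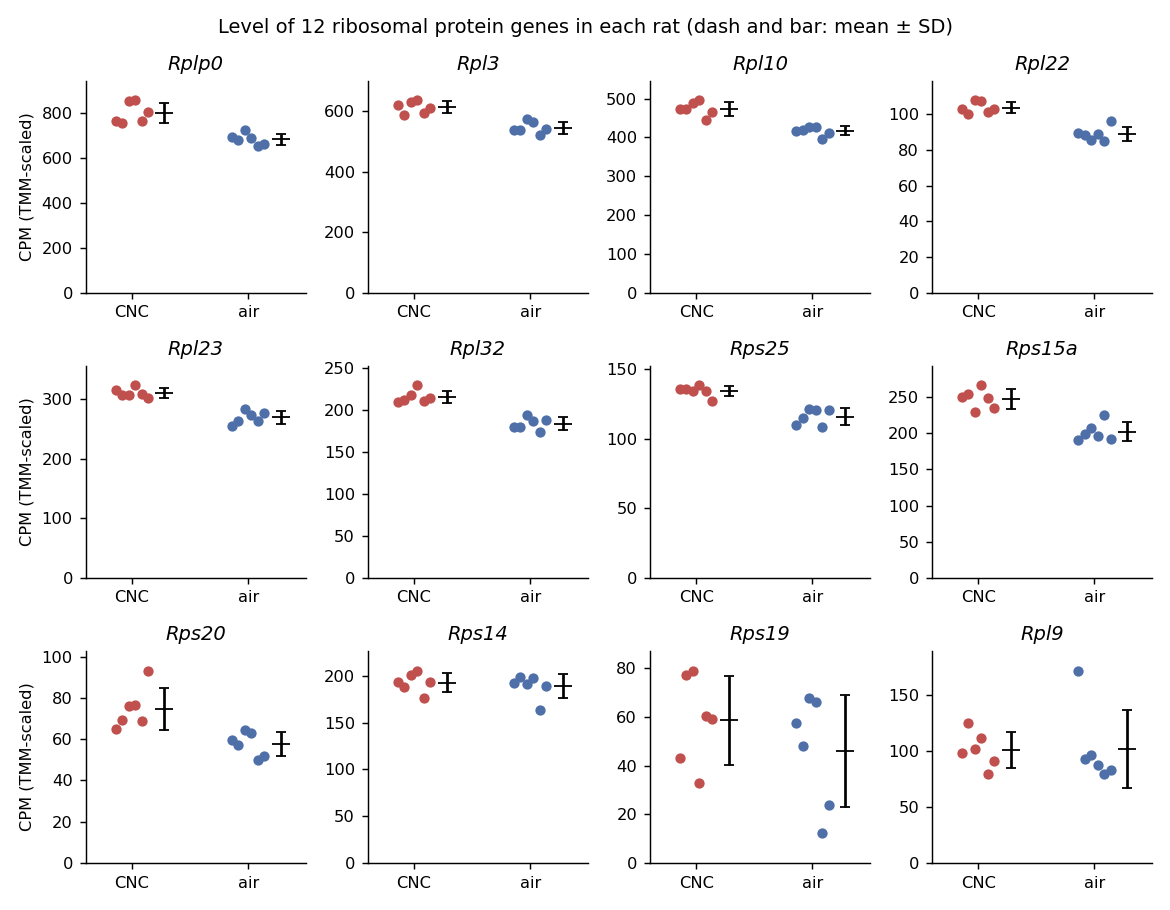
CPM per rat (y axis, starting at 0 in each panel) for 12 members, with CNC rats left, air rats right and mean ± SD as dash and bar. In Rplp0, Rpl32 and Rps15a all CNC points lie above all air points, whereas in Rps14, Rps19 and Rpl9 they overlap.

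Among the small-subunit genes, Rps20 showed the largest change of a called gene. It codes for a protein of the subunit's head. It had 65.0, 72.6 and 93.4 CPM in CNC rats and 49.8, 58.6 and 64.5 CPM in air rats. The lowest CNC rat stood just above the highest air rat, and the log2 fold change was 0.37 ± 0.08 (1.29-fold, adjusted p = 0.00412, edgeR).

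Rps15a had 229, 249 and 266 CPM in CNC rats and 190, 198 and 225 CPM in air rats (0.29 ± 0.05, adjusted p = 0.000266, edgeR). Rps25, needed by several viral RNAs to recruit the ribosome without a cap, had 127, 135 and 138 CPM in CNC rats and 108, 118 and 121 CPM in air rats (0.21 ± 0.04, adjusted p = 0.00048, edgeR). In neither gene did the groups overlap.

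Rps27 and Rps27l are close paralogs, and in human and mouse cells Rps27l is a p53 target. Rps27l had 33.5, 34.8 and 37.3 CPM in CNC rats and 27.4, 29.8 and 32.1 CPM in air rats, without overlap (0.23 ± 0.05, adjusted p = 0.00243, edgeR). Rps27 had 261, 272 and 295 CPM in CNC rats and 242, 252 and 278 CPM in air rats, which overlapped, and it did not pass (0.11 ± 0.04, adjusted p = 0.0681, edgeR). In 3 of the 28 alternatives Rps27 was called higher. The difference between the paralogs was not tested.

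Rpsa, also known as the laminin receptor precursor, had 579, 612 and 645 CPM in CNC rats and 524, 546 and 584 CPM in air rats, and was higher with a slight overlap (0.15 ± 0.04, adjusted p = 0.00745, edgeR). Rps3, Rps13, Rps18, Rps24, Rps27a and Rps28 were among the genes that were higher too, with overlap, at log2 fold changes between 0.10 (Rps13) and 0.19 (Rps28). Rps14, the gene lost in human 5q- syndrome, had 177, 193 and 206 CPM in CNC rats and 164, 191 and 199 CPM in air rats. Its medians were almost equal, and it did not pass (0.03 ± 0.05, adjusted p = 0.707, edgeR). Other uncalled small-subunit genes included Rps2, Rps3a, Rps4x, Rps7, Rps10, Rps12, Rps15, Rps16, Rps19, Rps21, Rps23, Rps26, Rps27 and Rps29.

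Rpl10l was the member that fell. It had 0.0687, 0.533 and 2.42 CPM in CNC rats and 1.2495, 2.16 and 3.597 CPM in air rats. These values rest on 53 counts over 6 CNC libraries and 174 over 6 air libraries, and the groups overlapped through CNC rat 6. The log2 fold change was -1.64 ± 0.48 (adjusted p = 0.0201, edgeR), and the call was lost without air rat 2, without CNC rats 3 and 4 and with the clock covariate. This intronless copy of Rpl10 is used in the testis, and the sources used here do not say how reads were divided between the 2 sequences. The other copies of restricted use, Rpl39l and Rpl3l, were too low to test, with 31 and 9 counts over the CNC libraries against 7 and 7 over the air libraries. Of the 31 Rpl39l counts, 28 came from CNC rat 5 alone.

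Whether single members departed from the rest was tested by scaling each library to the members' own sum. In that fit 4 of 74 passed, 2 higher and 2 lower, while of all tested genes 5.57% were higher and 36.2% lower. Those 2 shares are shaped by the scaling itself and are no background for the members. The adjustment ran over all these genes, so a member could pass at a larger unadjusted p than in the fit as reported. A call here is therefore weaker, and 10 of the 74 members had an unadjusted p under 0.05 (edgeR). Rps20 was higher by 0.23 (adjusted p = 0.0213) and Rpl32 by 0.09 (adjusted p = 0.0373), and Rps14 fell by 0.11 (adjusted p = 0.0394) and Rpl10l fell by 1.77 (adjusted p = 0.00836), all by edgeR on the log2 scale. Without a count filter 1 higher and 1 lower call was left, and leaving out single rats gave 1 to 3 higher and 1 to 2 lower. Median spread within a group was a coefficient of variation of 5.24% in CNC rats and 5.62% in air rats for the members, and 4.58% and 5.07% for other genes of at least 50 CPM.

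Several members varied far more than the family between rats of 1 group. The biological coefficient of variation, 5.37% at the median of the family, was 39.2% for Rps19, 19.7% for Rpl38, 19.6% for Rpl9 and 15.3% for Rpl39. In the tested rows with few counts it was 53.4% for Rpl10l, the highest of the family, 24.7% for Rplp2 and 15.3% for Rpl8. Rpl38 was at 56.5 CPM in CNC rat 3, against 28.8 to 34.8 CPM in the other CNC rats, and at 21.6 to 39.5 CPM in air rats. Rps19, the gene most often mutated in human Diamond-Blackfan anaemia, had 32.8, 59.8 and 79.1 CPM in CNC rats and 12.3, 52.7 and 68.0 CPM in air rats. The row LOC100362339, named Rps19l4 in RefSeq and a copy of Rps19, was high where Rps19 was low: it had 102, 91.8 and 98.3 CPM in CNC rat 4, air rat 5 and air rat 6, where Rps19 had 32.8, 12.3 and 23.9 CPM. The sum of both rows was 145 ± 12.6 CPM in CNC rats and 132 ± 17.2 CPM in air rats, against 58.7 ± 18.3 CPM in CNC rats and 46.0 ± 23.0 CPM in air rats for Rps19 alone (SD, n = 6 each). Rpl9 had 79.0, 100.02 and 125 CPM in CNC rats and 79.7, 90.4 and 172 CPM in air rats. Neither passed (adjusted p = 0.495 and 0.959, edgeR). Rpl39, a small protein lining the exit tunnel, had 74.7, 109.9 and 125 CPM in CNC rats and 63.0, 101 and 108 CPM in air rats and did not pass either (0.15 ± 0.13, adjusted p = 0.458, edgeR).

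Ribosomal protein genes have many processed copies in rodent genomes, and reads can be split between a gene and its copies. The table holds 100 rows matched to 54 members as copies by name or by RefSeq symbol, and 83 of them have counts. Of the 100, 3 carry the member's own RefSeq symbol and may be the gene itself, not a copy. Of the 41 with enough counts 4 were higher (9.76%, against 13.2% of all tested genes) and none was lower. Among the 4 were LOC100362640 and LOC100912032, which carry the members' own symbols, so the share is not one of copies alone. Their median log2 fold change was 0.10. All 100 rows together took 0.148 ± 0.00427% of counts in CNC rats and 0.139 ± 0.00405% in air rats (SD, n = 6 each). In 7 members (Rpl35a, Rpl8, Rplp2, Rps4x, Rps9, Rps19 and Rps27a) these rows held more counts than the member's own row. For Rps4x, Rps9 and Rps27a, all or nearly all of those counts lay in the row with the member's own RefSeq symbol.

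Of these rows 3, listed by an identifier, have the member's own symbol in RefSeq. The row LOC100912032, named Rps27a there, had 216, 220.5 and 242 CPM in CNC rats and 185, 198 and 213 CPM in air rats, higher by 0.17 (adjusted p = 0.00928, edgeR). The row named Rps27a itself, a fusion that yields free ubiquitin and a small-subunit protein, had 91.5, 96.4 and 105 CPM in CNC rats and 76.4, 86.3 and 99.0 CPM in air rats (0.16 ± 0.05, adjusted p = 0.0346, edgeR), and its call was lost in 11 of the 28 alternatives, with a sign change in another, under the clock covariate.
The row LOC100362640, named Rps4x in RefSeq, had 392, 399 and 407 CPM in CNC rats and 351, 375 and 389.7 CPM in air rats, higher without overlap (0.10, adjusted p = 0.0243, edgeR). The Rps4x row itself had 105, 112 and 118 CPM in CNC rats and 96.5, 106 and 111 CPM in air rats and did not pass (0.09 ± 0.04, adjusted p = 0.108, edgeR).
The row LOC103689992, named Rps9 in RefSeq, fell into separate levels within both groups. It had 2.03 and 2.27 CPM in CNC rats 1 and 3 and 42.0 to 55.7 CPM in the other 4. Air rats 1 and 5 had 44.5 and 34.2 CPM, and the other 4 had 1.75 to 3.21 CPM. It did not pass (adjusted p = 0.33, edgeR). Rps9 under its own symbol had 10 counts over the CNC libraries and none over the air libraries. Rps6, the protein phosphorylated downstream of TORC1, had 25 and 19 counts and was not tested, and Rpl7a (4 and 4) and Rpl35a (no count) were likewise nearly empty. With copies summed into their members 41 of 75 were higher.

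Genes that share the TOP start or the work of the ribosome were read from lists beside the family. Over all tested genes 13.2% were higher and 11.4% lower. The lists overlap: Eef1b2, Eef1g, Eef2 and Btf3, all higher, count both as TOP messenger RNAs and as elongation factors. Npm1 and Eif3f, also higher TOP messenger RNAs, count again among the assembly factors and the initiation factors. Of 20 other TOP messenger RNAs 11 were higher and none lower, with a median log2 fold change of 0.11. Eef1b2, an exchange factor of elongation, had 133, 142 and 156 CPM in CNC rats and 118, 123 and 128 CPM in air rats (0.23 ± 0.04, adjusted p = 0.000532, edgeR). Npm1, a nucleolar chaperone of assembly, had 205, 207 and 219 CPM in CNC rats and 168, 184 and 189 CPM in air rats (0.20 ± 0.03, adjusted p = 0.000366, edgeR). Neither gene's groups overlapped. Other genes with this start did not pass. Eef1a1, the carrier of aminoacyl-tRNA and one of the most abundant TOP messengers, had 2884, 2915 and 2936 CPM in CNC rats and 2824, 3071 and 3150 CPM in air rats (-0.05 ± 0.03, adjusted p = 0.331, edgeR). Tpt1 was also not called (0.04, adjusted p = 0.413, edgeR). Eef2, the translocase of elongation, had 1922, 1940.3 and 1991 CPM in CNC rats and 1780 to 1874 CPM in air rats and was higher without overlap (0.09 ± 0.03, adjusted p = 0.0314, edgeR), a call lost in 12 of 28 alternatives. Eef1a1 has a C/T run at its start too, shown here for that reason.
Eef1a1 (chr8:88225050-88225089, minus strand): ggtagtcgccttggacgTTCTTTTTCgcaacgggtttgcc

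Of 37 initiation factors 11 were higher and none lower (median 0.06). Eif4a1, the helicase of the cap-binding complex, had 345, 355 and 371 CPM in CNC rats and 279, 294 and 304 CPM in air rats (0.28 ± 0.03, adjusted p = 1.0e-05, edgeR). Eif4ebp1, a repressor of cap-dependent translation that TORC1 inactivates, had 21.0, 24.3 and 27.96 CPM in CNC rats and 15.4, 17.9 and 18.7 CPM in air rats (0.47 ± 0.07, adjusted p = 0.000152, edgeR). Both genes were higher in every CNC rat than in any air rat. Of 17 elongation factors 6 were higher and 1, Eif5a2, lower (median 0.08).

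Of 53 ribosome assembly factors 12 were higher and 1, Sbds, lower (median 0.08). Tsr1, which acts in late assembly of the small subunit, had 52.8, 57.7 and 60.0 CPM in CNC rats and 42.3, 44.4 and 50.9 CPM in air rats, without overlap (0.34 ± 0.05, adjusted p = 9.7e-05, edgeR). Of 17 genes of RNA polymerase I and its factors, which make ribosomal RNA, 3 were higher and 1 was lower (median 0.04). The share that was higher, 17.6%, was near the 13.2% of all tested genes. The lower gene was Ubtf, the factor that opens ribosomal DNA, with 160, 165 and 171 CPM in CNC rats and 172, 184 and 191 CPM in air rats (-0.15 ± 0.03, adjusted p = 0.0033, edgeR). Fau, a small-subunit protein made as a fusion to a ubiquitin-like protein, did not pass (-0.11 ± 0.10, adjusted p = 0.465, edgeR). Gnb2l1, the older symbol of Rack1, a scaffold on the small subunit, was higher with overlap (0.12 ± 0.03, adjusted p = 0.0162, edgeR). Ribosomal RNA itself was not measured in these polyadenylated libraries.

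Of 69 mitochondrial ribosomal protein genes 6 were higher (8.70%, against 13.2% of all tested genes) and none lower, with 59 of 69 above 0 and a median of 0.09. Of 31 genes of TORC1 signalling 8 were higher and 1, Sesn1, lower (median 0.04). Myc, a transcription factor that acts on ribosomal genes, had 35.03, 38.7 and 42.9 CPM in CNC rats and 27.3, 29.4 and 32.02 CPM in air rats (0.39 ± 0.05, adjusted p = 6.9e-05, edgeR). Larp1, the TOP-binding protein, had 218, 233 and 243 CPM in CNC rats and 196, 203 and 217 CPM in air rats (0.18 ± 0.04, adjusted p = 0.0015, edgeR). In both genes the groups did not overlap, for Larp1 by a narrow margin.

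**Figure D4:**
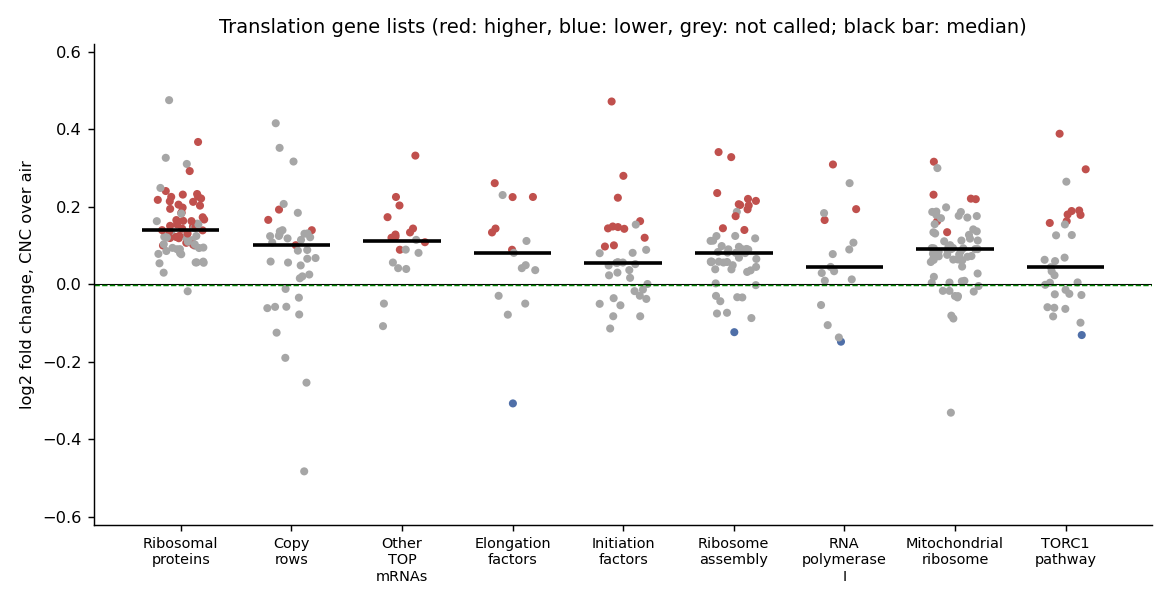
Log2 fold change (CNC over air, y axis) of each tested gene in the ribosomal protein family, its copies and the other lists, with red for higher, blue for lower, grey for not called and a black bar for the median. The family's median of 0.14 lies above the medians of the other lists drawn, and 5 genes beyond 0.6 in either direction are not drawn.

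Markers of other cells also differed between the groups. Of 9 alveolar macrophage markers 7 were higher and 1 lower, with summed levels of 1243 to 1651 CPM in CNC rats and 642 to 781 CPM in air rats. Of 10 neutrophil markers 5 were higher and 1 lower (430 to 693 CPM in CNC rats, 169 to 273 CPM in air rats), and of 10 alveolar type 2 cell markers 8 were higher and none lower (31206 to 38254 CPM in CNC rats, 23526 to 30698 CPM in air rats). All 10 endothelial markers had log2 fold changes below 0 and 9 were called lower (4497 to 5068 CPM in CNC rats, 5350 to 6231 CPM in air rats). Of 7 red cell markers 5 were lower and 1 higher, with a median log2 fold change of -0.56 and summed levels of 1008 to 1337 CPM in CNC rats and 1410 to 1976 CPM in air rats, which did not overlap. Of 11 heart muscle markers none was called, with summed levels of 13.7 to 132 CPM in CNC rats and 13.8 to 454 CPM in air rats. Of 12 T cell markers none was higher and 1 was lower (8.33%), and of 9 B cell markers none was higher and 1 was lower (11.1%). Over all tested genes 11.4% were lower. Summed levels of the T and B cell markers were 210 to 227 and 119 to 140 CPM in CNC rats. In air rats they were 189 to 270 and 132 to 164 CPM. Of 12 proliferation genes 6 were higher, among them Mki67 with means of 25.6 ± 4.58 CPM in CNC rats and 18.9 ± 3.11 CPM in air rats (SD, n = 6 each). The part of these cells in the rise of the ribosomal protein transcripts was not tested.

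**Figure D5:**
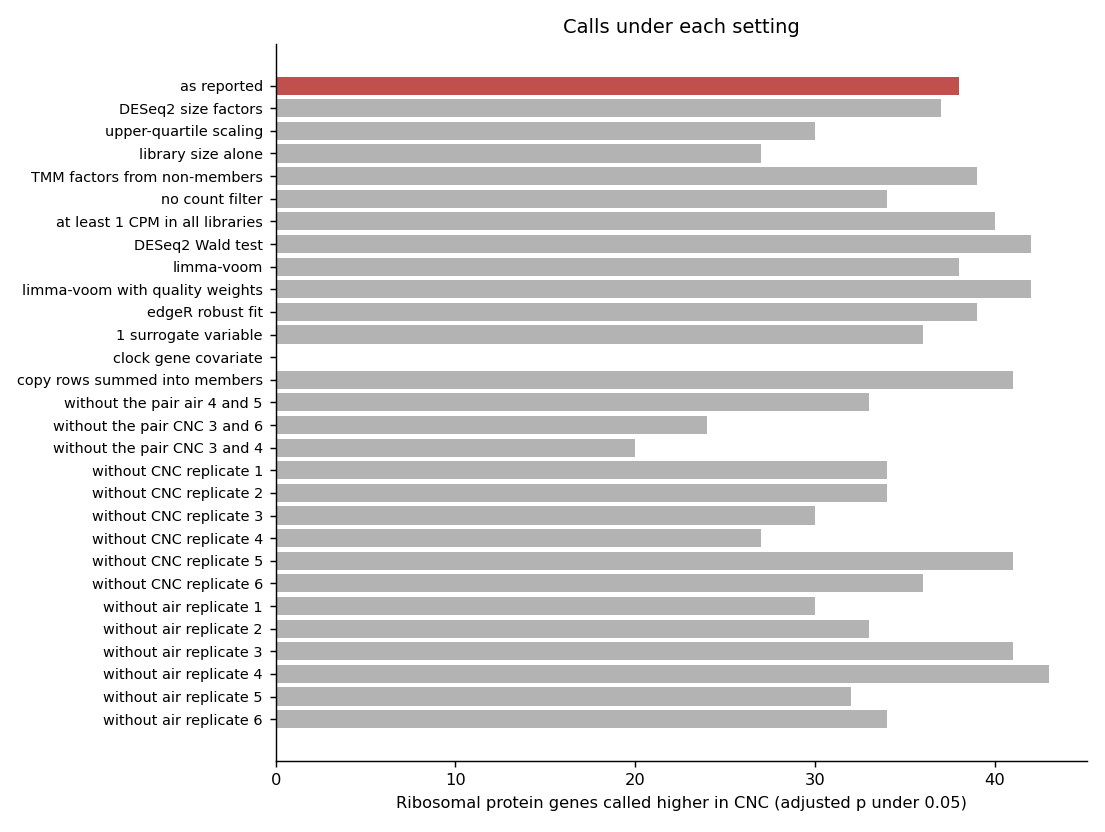
Number of ribosomal protein genes called higher in CNC lungs (x axis) under each processing choice and each set of rats. The bar for the fit as reported stands at 38, most alternatives lie between 27 and 43, and the bars without CNC rats 3 and 6 (24) and without CNC rats 3 and 4 (20) are shorter, with no gene left under the clock covariate.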

How the data were processed

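Lung RNA of 6 CNC and 6 air rats was sequenced from strand-specific polyadenylated libraries amplified over 12 PCR cycles, per the labels' protocols. The authors deposited raw counts per gene symbol in a single table, with no normalization. Per the submitters' processing notes, the tools were HTSeq 0.11.2, HISAT2 2.1.0, SAMtools 1.8, Trimmomatic 0.35, bcl2fastq 2.19 and Cufflinks. The build in the table's name is Rnor6. Annotation and strand option were not given in the sources used here, so antisense, overlapping and near-identical genes are uncertain. Groups came from the labelled treatment. Rats were housed 3 per cage, and cages were not analysed here.

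The counts were tested with edgeR 4.0.16 (R 4.3.3): TMM scaling, a minimum count of 10 by filterByExpr, quasi-likelihood fit with group alone, and Benjamini-Hochberg adjustment over 15019 genes. A second fit set each library's size to the members' summed counts. Alternatives used other scalings and filters, DESeq2 1.42.0, limma 3.58.1, sva 3.50.0, a clock gene covariate, copies summed, and rats left out. The code was tested on simulated data. Within-group library pairs differed by a chi-square per degree of freedom of 2.60 to 7.93, where sampling noise gives about unity, so no pair looked like a repeat.

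Members and lists were chosen with earlier results of these data known. Full values are given for the 10 called members of smallest adjusted p, for the 3 highest and 3 lowest log2 fold changes (of the lowest, Rps14 was above 0) and for a preset panel. Rps9 and Rpl38 were added after their values were seen. Among other lists up to 3 called genes of smallest adjusted p were chosen, with Dbp and Mki67 added after their values were seen. Copies were matched by symbol, and promoters by symbol in RefSeq tables of another assembly, GRCr8, so coordinates are not those of the counts. Rpl37a had no row under that symbol.
Some members and other genes are counted in the totals and not reported here by name.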

Additional observations from a re-analysis of the deposited data

Results flagged for a closer look

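In 5 of 54 sets of 6 rats examined, 1 rat stood far from the other 5, by Dixon's gap test at 95%, where chance marks about 1 in 20 sets. In the CNC group, Rpl10l was at 2.42 CPM in rat 6, against 0.0687 to 0.868 CPM in the other CNC rats. Rps25 was at 127 CPM in the same rat, against 134 to 138 CPM in the others. In the air group, rat 1 had 63.0 CPM of Rpl39, where the others had 97.0 to 108 CPM, and 172 CPM of Rpl9, where the others had 79.7 to 96.0 CPM. Rps14 was at 164 CPM in air rat 5, against 189 to 199 CPM in the other air rats.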

How the results depend on the processing

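The number of members called higher was 38 as reported and fell to 0 with the clock gene covariate, 24 without CNC rats 3 and 6, 20 without CNC rats 3 and 4 (chosen after seeing the data) and 22 at an adjusted p under 0.01. Leaving out 1 rat at a time gave 27 (without CNC rat 4) to 43 (without air rat 4). Of the 38, 26 were called with each rat left out in turn, 27 under each of 4 other scalings, and 25 in both. The 1 lower call became 0 under the filter of 1 CPM in all libraries, the clock covariate, CNC rats 3 and 4 left out and an adjusted p under 0.01, and ran from 0 to 1 with single rats left out. Relative to the members' own sum, 2 higher and 2 lower calls became 1 and 1 without a count filter, and 1 lower without CNC rats 3 and 4; with single rats left out they ran from 1 to 3 and from 1 to 2. The difference in share of counts, 0.141 percentage points, ran from 0.123 to 0.160 with single rats left out.

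Uncalled log2 fold changes that changed sign were Rpl9 (-0.02), at 0.019 by limma-voom, 0.028 with quality weights, 0.042 with the clock covariate, 0.0082 without CNC rats 3 and 6, and from -0.087 (without CNC rat 2) to 0.20 (without air rat 1) with single rats left out; Rps14 (0.03), at -0.00432 without air rats 4 and 5, -0.0086 without CNC rats 3 and 4, and from -0.00379 (without air rat 5) to 0.058 (without CNC rat 5); and, with the clock covariate, Rplp1 at -0.00041, Fau at 0.16 and Rpl22l1 at -0.045. Rps27a, called as reported, was at -0.016 with that covariate. Eef2 (0.09) lost its call in 12 alternatives. Uncalled genes that gained a call were Rpl5 and Rps27, in 3 of the 28 alternatives each, and Rps4x and Ncl, in 1 each. None of the 4 other scalings moved the median log2 fold change of all genes by over 0.1, whereas scaling to the members' own sum, by its construction, moved it to -0.14, against -0.0026 as reported. The cause was not tested. No paired analysis was possible because the labels give the groups no shared replicate numbers. Rows with few counts (Rpl10l, Rpl8, Rplp2) and the 6 untested members limit what can be said of them, as intervals cover the spread between rats and not the split of reads among copies.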

Other observations

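Over the 12 rats, with the group means removed, 62 of the 74 tested members had a Pearson r above 0.5 with the mean of the members, itself included, and the median r between pairs of members was 0.50. Among 10461 other genes of at least 10 CPM, those most like the members' mean in the same measure were Pabpn1 (r = 0.962), Stk11 (r = 0.926), Mrpl54 (r = 0.918), Cutc (r = 0.917) and Impact (r = 0.914). These values describe 12 libraries that share depth and composition within a rat, and no test was made of them. Between groups, Mrpl54 was higher in CNC lungs (log2 fold change 0.32, adjusted p = 0.00816, edgeR), and Pabpn1, Stk11, Cutc and Impact did not pass.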
